A study of Mus musculus with 12 samples.

Results

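The cyclin-dependent kinase (CDK) inhibitors other than p21, together with 3 genes that are commonly read as markers of senescence, were followed in glomeruli of adriamycin (ADR) nephropathy in the mouse. The genes were taken by symbol from the count tables, and all 9 were found among 26264 symbols. They were the Cip/Kip genes Cdkn1b (p27) and Cdkn1c (p57), the INK4 genes Cdkn2a (p16 and ARF), Cdkn2b (p15), Cdkn2c (p18) and Cdkn2d (p19), the secreted factors Gdf15 and Il6, and the nuclear lamina gene Lmnb1. Glomerulus-enriched RNA came from male mice, 8 weeks old, of an inbred albino strain, from its substrain BALB/cAjcl (Ajcl) or its substrain BALB/cByJcl (ByJcl), with 3 libraries in each of 4 groups. The Day 5 groups received a single retro-orbital dose of ADR (doxorubicin hydrochloride), 10 mg/kg, and the baseline groups were untreated. The study's methods also describe controls given saline, and the count tables name the baseline columns as controls, but the labels give no injection for them. If they had none, effects of the injection and of ADR cannot be told apart. Animals were assigned to treatment without formal randomization. Glomeruli were captured by perfusion with magnetic beads, collagenase digestion and magnetic separation, so other kidney cells can remain. The labels do not say whether a library holds 1 mouse or several, and p-values measure the spread between these libraries only.

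CDK inhibitors hold cells out of division. The INK4 proteins bind CDK4 and CDK6 and block their pairing with D-type cyclins, whereas the Cip/Kip proteins bind assembled cyclin-CDK complexes more widely, and both keep the retinoblastoma protein RB in the form that restrains E2F. Mature podocytes, the epithelial cells of the glomerular filter, do not normally divide and are known for high p27 and p57. Senescence is a lasting arrest that is usually recognised from p16 or p21, from loss of lamin B1 and from secreted factors such as interleukin 6, and GDF15 is a stress-induced member of the TGF-beta superfamily.

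Total counts per library ranged from 42198416 to 54687045 (median 46915195), at which 3 counts correspond to between 0.0549 and 0.0711 CPM, the usual depth-scaled unit, here with library sizes scaled by TMM. Replicate 1 of Ajcl at Day 5, which the study left out for reduced glomerular purity, had the highest summed CPM of 10 proximal tubule markers (9637, against 554 to 6330 in the others) and was kept out of the comparisons, leaving 11 libraries and 2 in that group. Cdkn1a, which encodes p21, measured 27.5 ± 5.15 CPM (SD, n = 3) in Ajcl at baseline and 413 ± 188 (n = 2) at Day 5, so that its log2 fold change (log2FC) was 3.94 with an SE of 0.30 (adjusted p = 0.000257 by edgeR). In ByJcl Cdkn1a measured 22.0 ± 1.47 CPM at baseline and 713 ± 203 at Day 5 (SD, n = 3), and its log2FC was 5.04 with an SE of 0.31 (adjusted p = 1.60e-05 by edgeR).

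Compared per exonic length, as RPKM (CPM divided by the exonic length in kilobases), Cdkn1c stood far above the other 8 genes. Its RPKM was 504 ± 26.4 in Ajcl and 619 ± 110 in ByJcl at baseline (SD, n = 3), and 962 ± 171 (n = 2) and 1220 ± 187 (n = 3) at Day 5. Cdkn1b followed at group means between 17.8 and 20.8 RPKM, and Cdkn2d at 8.12 to 9.33. Lmnb1 lay at 2.33 to 2.60 RPKM, Cdkn2c at 0.905 to 1.10 and Cdkn2b at 0.480 to 0.797. Gdf15 changed its place in this order. It measured 1.50 ± 0.35 RPKM in Ajcl at baseline (SD, n = 3), below Lmnb1, and 10.7 ± 5.22 in ByJcl at Day 5, where its libraries overlapped those of Cdkn2d at 8.20 ± 1.17. Cdkn2a, at group means of 0.0133 to 0.226 RPKM, and Il6, at 0.00507 to 0.120, were the lowest, with 3 and 4 of the 11 libraries at 0 counts, and cannot be ranked against each other at this depth.

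**Figure D1:**
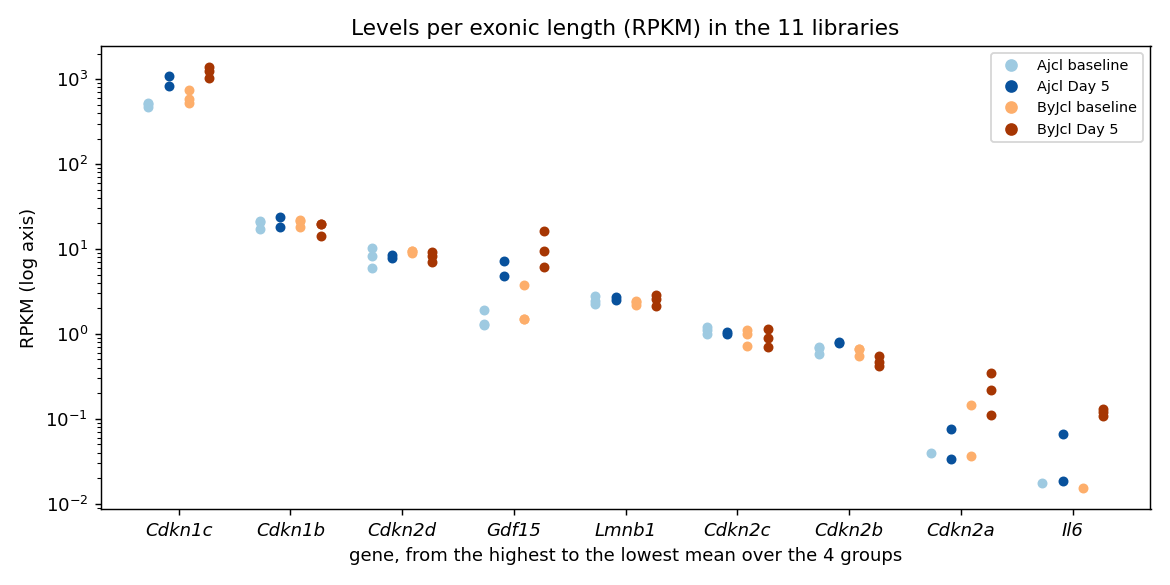
RPKM of each gene on a log axis, with 1 point per library and the 4 groups in separate columns and colours. Cdkn1c lies above all other genes in every library; the 4 libraries at 0 for Il6 and the 3 at 0 for Cdkn2a are not drawn.

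The first comparison asked which of these genes responded to ADR in each substrain. All 9 genes passed the filter on low counts, but Cdkn2a and Il6 passed only through ByJcl at Day 5, where 2 and 3 libraries exceeded the minimum of 0.211 CPM, so these 2 genes were bound to be highest there. In ByJcl, 2 of the other 7 genes rose at Day 5, namely Cdkn1c and Gdf15, and none fell. Il6 also passed, conditional on that filter, and lost its call in each of the 6 fits that left out 1 ByJcl library. Over all 17002 tested genes 10.6% passed in that comparison at an adjusted p below 0.05, and 5.75% passed as higher at Day 5. In Ajcl none of the 9 passed, against 0.312% of all genes; by edgeR 1666 genes had an unadjusted p below 0.05, and DESeq2 called 301 genes there, Cdkn1c and Gdf15 among them. Among the same 7 genes the libraries of baseline and Day 5 did not overlap for 2 in ByJcl, Cdkn1c and Gdf15 (33.6% of all genes), and for 3 in Ajcl, these and Cdkn2b (25.6%). The median log2FC of the 7 genes was -0.03 in ByJcl and 0.09 in Ajcl, where the medians over all tested genes were 0.0066 and -0.0091.

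**Figure D2:**
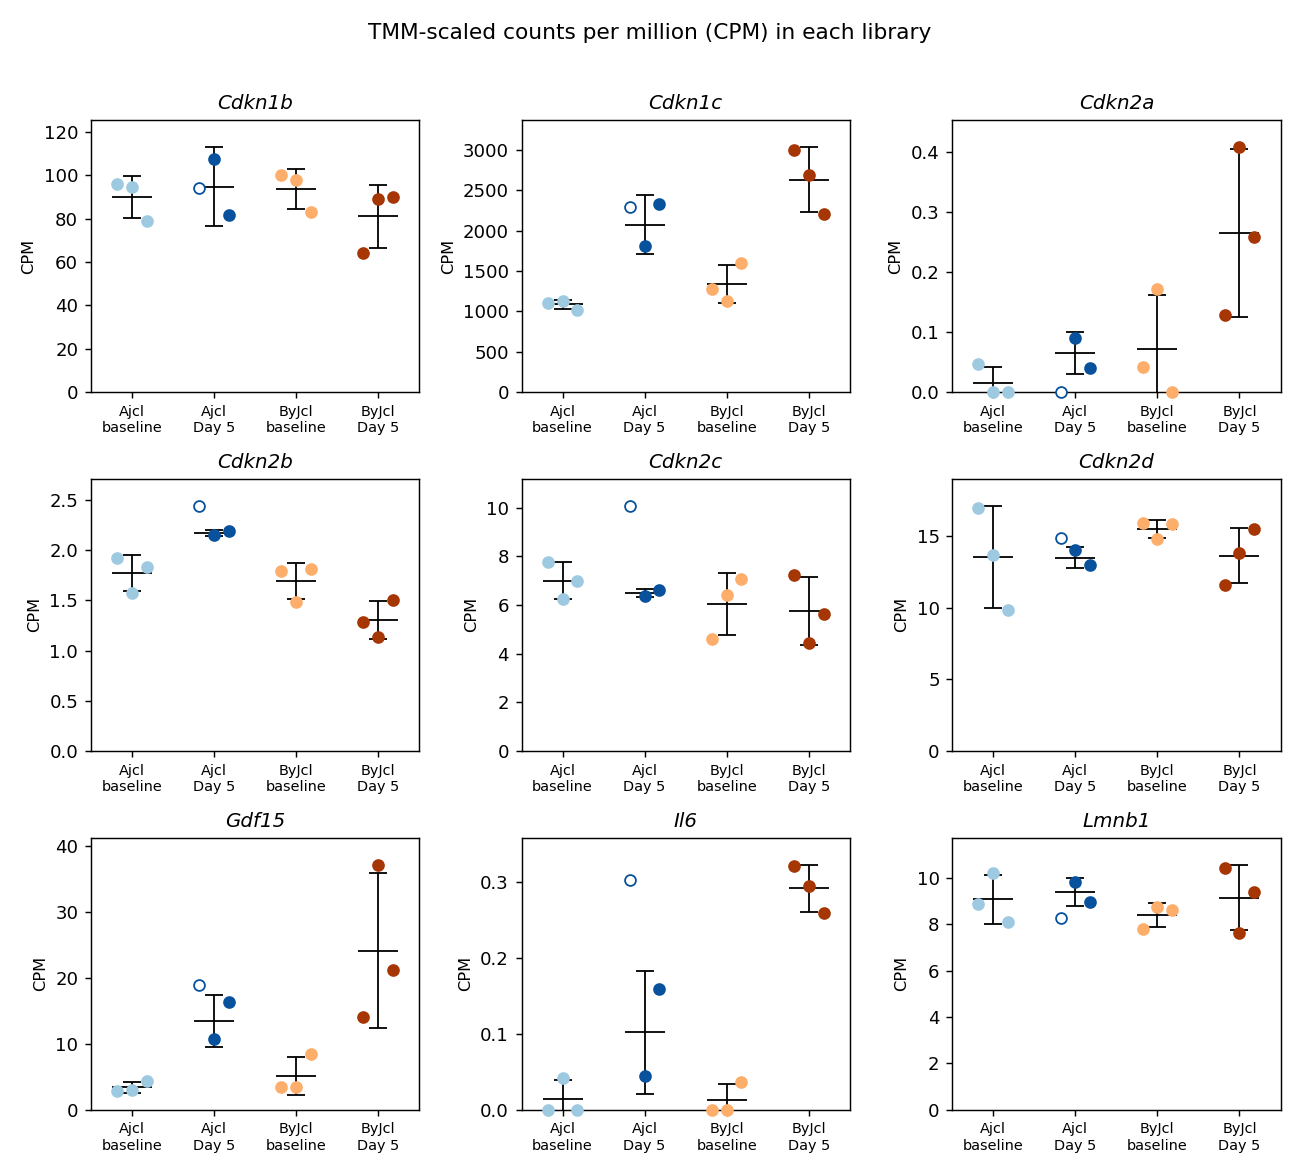
TMM-scaled CPM of the 9 genes in each of the 12 libraries, with the group mean and SD as bars (n = 3, Ajcl Day 5 n = 2); the open circle is Ajcl Day 5 replicate 1, which enters neither mean nor test. Cdkn1c and Gdf15 are higher at Day 5 in both substrains without overlap, and Cdkn1b, Cdkn2c, Cdkn2d and Lmnb1 overlap between baseline and Day 5.

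Among the Cip/Kip genes, Cdkn1c (chr7:143012069-143014806, minus strand, GRCm39), an imprinted gene whose product p57 marks mature podocytes, was the member with the most counts. Its CPM in Ajcl was 1107, 1131 and 1023 in the baseline libraries and 1812 and 2335 at Day 5. In ByJcl it was 1273, 1133 and 1594 at baseline and 3000, 2685 and 2201 at Day 5. Every Day 5 library of either substrain lay above every baseline library. Cdkn1c rose 2.01-fold in ByJcl (log2FC 1.01, SE 0.18, adjusted p = 0.00670 by edgeR) and kept an adjusted p below 0.05 in all 19 alternative fits, the highest being 0.0361 by edgeR. In Ajcl the ratio was 1.94 (log2FC 0.95, SE 0.20), with an adjusted p = 0.0913 by edgeR. Of the 19 alternative fits 4 called Cdkn1c in Ajcl, and the adjusted p ranged from 0.000416 by DESeq2 to 0.944 by edgeR without Ajcl Day 5 replicate 3. The 2 responses differed by a log2FC of 0.05 (95% interval -0.53 to 0.64, adjusted p = 0.975 by edgeR), which is smaller than its own standard error of 0.27. Cdkn1c lies wholly inside the long non-coding gene 4933417O13Rik on the same strand, and that gene had between 2 and 30 counts per library, against at least 47321 for Cdkn1c.

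The podocyte markers moved the other way. Of 12 podocyte markers (Nphs1, Podxl, Synpo and Wt1 among them) 10 fell after ADR in ByJcl (4.83% of all genes were called lower there; median log2FC of the 12: -1.20), and none passed in Ajcl (median -0.40). Their summed CPM ranged from 21510 to 23810 at baseline and from 8968 to 12190 at Day 5 in ByJcl, and from 16790 to 22920 and from 11970 to 17550 in Ajcl. In these bulk samples fewer podocytes and less RNA per podocyte cannot be told apart. Among 10 endothelial markers 2 fell in ByJcl, Ehd3 (log2FC -0.81) and Flt1 (-0.54), with a summed CPM of the list of 9995 to 12060 at baseline and 6850 to 9717 at Day 5, and none passed in Ajcl. Serpine2 (log2FC 0.87) was the only 1 of 5 mesangial markers called in ByJcl, where 5.75% of all genes were called higher. The summed CPM of these 5 was 2086 to 2524 at baseline and 2369 to 3021 at Day 5 in ByJcl, and none passed in Ajcl. Of 5 erythroid markers the 4 globin genes were listed at 0 in every library, and Alas2, the heme synthesis gene of red cell precursors, fell in Ajcl (log2FC -3.46, adjusted p = 0.0272 by edgeR) and in ByJcl (-3.50, adjusted p = 0.00201 by edgeR). The part of these cells in the values of the 9 genes was not tested. Set against the mean log2 CPM of the 12 podocyte markers in the same library, the log2 CPM of Cdkn1c stood 0.48, 0.07 and 0.24 higher in Ajcl at baseline and 1.13 and 2.15 higher at Day 5. In ByJcl the same difference was 0.20, 0.14 and 0.62 at baseline and 2.49, 2.73 and 2.33 at Day 5. The relative level was thus highest in the ByJcl Day 5 libraries and did not overlap between baseline and Day 5 in either substrain. The shift was 2.20 in ByJcl (two-sided exact permutation p = 0.1, the smallest that 3 against 3 libraries allows) and 1.37 in Ajcl (exact permutation p = 0.2, the smallest for 2 against 3). Between the substrains the relative level differed by 0.05 at baseline, where the libraries overlapped (exact permutation p = 0.7). At Day 5 it differed by 0.88 without overlap (exact permutation p = 0.2, the smallest for 2 against 3). Neither test could pass with so few libraries.

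**Figure D3:**
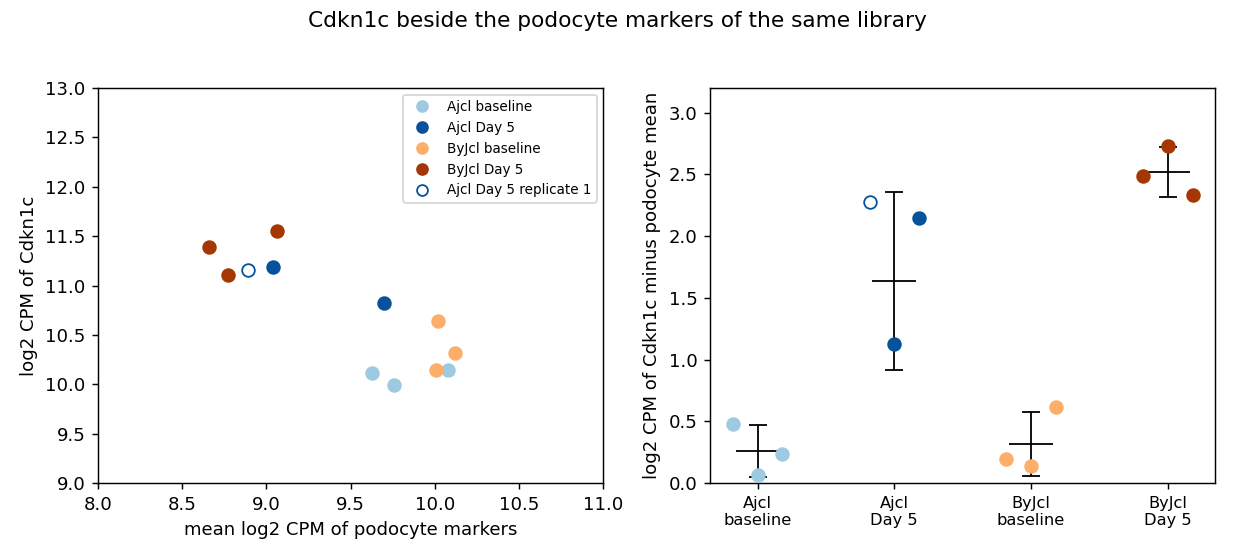
Left, log2 CPM of Cdkn1c against the mean log2 CPM of 12 podocyte markers, 1 point per library; right, the difference of these values by group with the mean and SD (n = 3, Ajcl Day 5 n = 2; the open circle is Ajcl Day 5 replicate 1, outside the means). All Day 5 libraries have a higher Cdkn1c than all baseline libraries, the podocyte markers are lower than at baseline in the ByJcl Day 5 libraries but within the Ajcl baseline range in Ajcl Day 5 replicate 2, and the differences at Day 5 (1.13 to 2.73) lie above those at baseline (0.07 to 0.62).

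Cdkn1b (chr6:134897364-134902476, plus strand), which encodes p27, stayed near one level. Its CPM was 89.9 ± 9.58 in Ajcl at baseline (SD, n = 3), 94.7 ± 18.2 at Day 5 (n = 2), 93.7 ± 9.19 in ByJcl at baseline and 81.1 ± 14.6 at Day 5 (n = 3). The libraries of all 4 groups overlapped. The log2FC was 0.09 (95% interval -0.28 to 0.46) in Ajcl and -0.19 (-0.52 to 0.14) in ByJcl, and neither passed (adjusted p = 0.912 and 0.470 by edgeR). The interval therefore leaves room for a fall of up to 0.52 on the log2 scale in ByJcl.

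None of the 4 INK4 genes passed in any comparison. Cdkn2b (chr4:89223204-89229276, minus strand), whose product p15 is a known mediator of arrest by TGF-beta, came nearest to a difference between the substrains. Its CPM was 1.92, 1.57 and 1.83 in Ajcl at baseline, 2.15 and 2.19 in Ajcl at Day 5, 1.79, 1.49 and 1.81 in ByJcl at baseline and 1.28, 1.13 and 1.51 in ByJcl at Day 5. The Ajcl Day 5 libraries were thus above, and the ByJcl Day 5 libraries mostly below, the baseline range. At Day 5 the ByJcl level was 0.615 of that in Ajcl (log2FC -0.70, SE 0.25, unadjusted p = 0.0185, adjusted p = 0.276 by edgeR), and the interaction was -0.66 (95% interval -1.42 to 0.09, unadjusted p = 0.0804, adjusted p = 0.643 by edgeR). These libraries held between 50 and 110 counts of Cdkn2b each. An overlapping non-coding gene on the opposite strand, Gm12610, had between 0 and 12 counts per library, and the strand setting of the counting is not given in the sources used here.

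Cdkn2a (chr4:89192708-89212890, minus strand) lies 10313 bases from Cdkn2b, and its gene-level count cannot separate the p16 and ARF transcripts that share its exons. The libraries held 2, 0 and 0 counts in Ajcl at baseline, 4 and 2 at Day 5, 2, 8 and 0 in ByJcl at baseline and 6, 18 and 12 at Day 5. The ByJcl Day 5 libraries lay above all Ajcl libraries, and they overlapped those of ByJcl at baseline. Cdkn2a had passed the filter only through 2 libraries of ByJcl at Day 5, so its higher level in that group is conditional on the filter. Scaled for depth, the summed counts of ByJcl at Day 5 were 3.86 times those at baseline (95% counting interval 1.88 to 8.73, or 1.38 to 13.3 with halved counts, for counting error only), and the test across libraries gave an adjusted p = 0.272 by edgeR. The 8 counts in ByJcl baseline replicate 2 exceeded the 6 in ByJcl Day 5 replicate 1. In Ajcl the sums were 6 and 2 counts, a ratio of 4.32 (0.773 to 43.8, or 0.347 to 227 with halved counts).

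Cdkn2c (chr4:109517957-109524386, minus strand), encoding p18, measured 7.00 ± 0.76 CPM in Ajcl at baseline, 6.49 ± 0.16 at Day 5 (n = 2), and 6.02 ± 1.27 and 5.75 ± 1.40 in ByJcl (SD, n = 3 elsewhere). Its log2FC was -0.09 (95% interval -0.63 to 0.45) in Ajcl and -0.03 (-0.52 to 0.45) in ByJcl. Cdkn2d (chr9:21199700-21202727, minus strand), encoding p19, had the highest INK4 level, with 13.5 ± 3.57 and 13.5 ± 0.73 CPM in Ajcl and 15.5 ± 0.63 and 13.6 ± 1.95 in ByJcl at baseline and Day 5. The log2FC of Cdkn2d was 0.01 (95% interval -0.45 to 0.48) in Ajcl and -0.16 (-0.58 to 0.25) in ByJcl. Both genes overlapped between baseline and Day 5 in each substrain, and their adjusted p lay between 0.632 and 0.990 by edgeR for the effect of ADR.

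**Figure D4:**
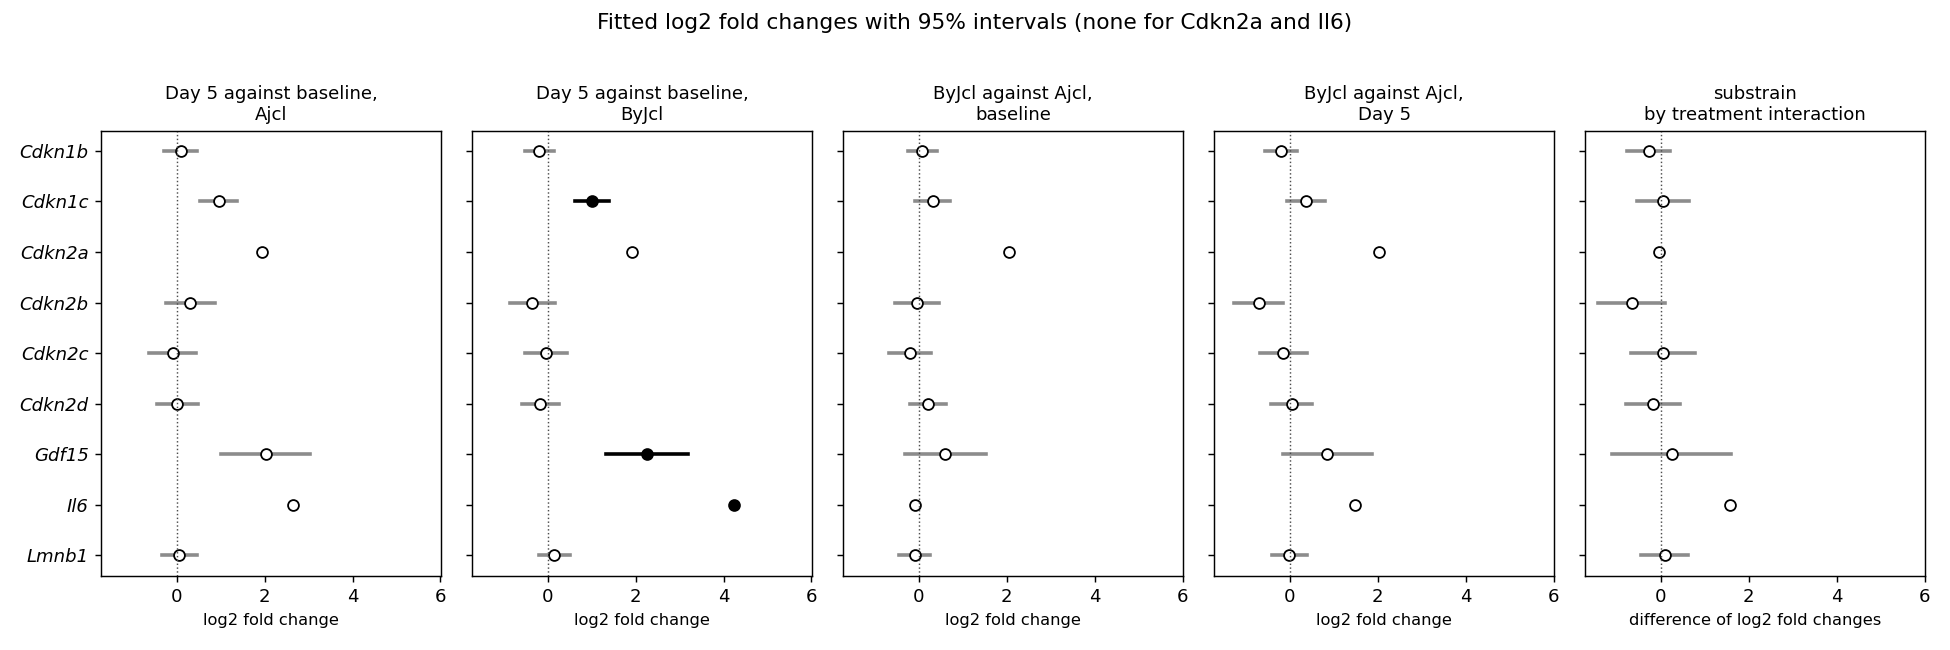
Fitted log2 fold changes of the 9 genes in 4 comparisons and the difference of the 2 ADR responses (interaction), as points with 95% intervals; filled points have an adjusted p below 0.05 by edgeR, and no interval is drawn for Cdkn2a and Il6, whose baseline counts are near 0. The filled points are Cdkn1c (1.01), Gdf15 (2.27) and Il6 (4.23), all in ByJcl at Day 5 against baseline.

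Of the secreted factors, Gdf15 (chr8:71082038-71091537, minus strand) had the larger number of counts. GDF15 is a circulating stress signal, known as a target of p53 and of the integrated stress response. Its CPM was 2.90, 2.97 and 4.31 in Ajcl at baseline and 10.7 and 16.3 at Day 5, and in ByJcl 3.43, 3.41 and 8.41 at baseline and 14.0, 37.1 and 21.3 at Day 5. All Day 5 libraries lay above all baseline libraries, and the replicates spread widely in ByJcl, where replicate 3 at baseline was more than the other two together and replicate 2 stood highest at Day 5. Gdf15 rose 4.82-fold in ByJcl (log2FC 2.27, SE 0.42, adjusted p = 0.00854 by edgeR) and passed in all 19 alternative fits, with a log2FC between 1.82 and 2.84. In Ajcl the ratio was 4.06 (log2FC 2.02, SE 0.46, adjusted p = 0.125 by edgeR), and 2 of the 19 alternative fits called it. The adjusted p of Gdf15 ranged from 0.000784 by DESeq2 to 1.0 by edgeR without Ajcl Day 5 replicate 3. The responses differed by 0.25 (95% interval -1.11 to 1.60, adjusted p = 0.942 by edgeR), an interval too wide to show that they were alike.

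Il6 (chr5:30218112-30224979, plus strand), the gene of the cytokine interleukin 6, was near the limit of detection. The libraries held 0, 2 and 0 counts in Ajcl at baseline, 2 and 8 at Day 5, 0, 0 and 2 in ByJcl at baseline and 15, 13 and 12 at Day 5. The ByJcl Day 5 libraries were close to each other and above all other libraries of the comparisons, while 1 Ajcl Day 5 library had the same 2 counts as an Ajcl baseline library. Scaled for depth, the summed 40 counts of ByJcl at Day 5 against 2 at baseline gave a ratio of 21.5 (95% counting interval 5.57 to 183, or 3.63 to 932 with the counts halved and rounded up, as for mates counted separately), and the test across libraries gave an adjusted p = 0.0356 by edgeR. Il6 had entered that test only through its level in these 3 libraries, so the call is conditional on it. Without 1 ByJcl library the adjusted p of Il6 was 0.0509 to 0.118 by edgeR. In Ajcl 10 against 2 counts gave 7.21 (1.54 to 67.6, or 0.806 to 341 with halved counts, which includes 1; adjusted p = 0.551 by edgeR), and at Day 5 ByJcl exceeded Ajcl by a ratio of 2.77 (1.36 to 6.20, or 1.07 to 9.85 with halved counts; adjusted p = 0.526 by edgeR). The fitted log2FC of Il6 for that difference, 1.49, was 0.80 with Ajcl Day 5 replicate 1 included, 0.87 without Ajcl Day 5 replicate 2 and 2.67 without Ajcl Day 5 replicate 3.

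The sequence before the Il6 start is shown because Il6 went from almost no counts to 12 to 15 counts in the ByJcl Day 5 libraries, a call that depended on single libraries, and because its window holds matches to well-known stress-response motifs. The window spans 250 bases before the RefSeq start, at chr5:30217862-30218111 on the plus strand of GRCm39, and overlaps no annotated exon. Capitals mark, in order, an AP-1 match, a p53 consensus half-site and an NF-kappaB match.
Il6: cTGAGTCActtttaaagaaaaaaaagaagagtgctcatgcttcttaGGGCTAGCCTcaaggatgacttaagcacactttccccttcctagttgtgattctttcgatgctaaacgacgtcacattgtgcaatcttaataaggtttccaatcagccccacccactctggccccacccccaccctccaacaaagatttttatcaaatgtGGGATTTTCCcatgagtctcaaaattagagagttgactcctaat
AP-1 was searched as TGANTCA, and NF-kappaB and p53 by their common consensus, on both strands; the matches do not overlap each other, and they are descriptions of letters, not sites of binding. Of 32851 promoter windows of this length, 6.75% held the AP-1 letters, 7.13% the p53 half-site and 0.356% the NF-kappaB letters. The last share counts only the narrow string searched, so it does not show how rare NF-kappaB matches of any form are. Windows were at hand for 7 of the 9 genes. The cyclic AMP response element TGACGTCA, present in 1.55% of windows, was found before Cdkn2b, a p53 half-site in the Cdkn2d window and the E-box CACGTG, in 6.02% of windows, in the second of the Gdf15 windows. The Cdkn2d window is in part transcribed, with up to 222 bases in annotated exons of the same gene. The second Gdf15 window, which holds the E-box, lies with all its 250 bases in an annotated exon of Gdf15, and the first with up to 157.

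Markers of immune cells, which can also make interleukin 6, stood as follows in ByJcl. Of 8 macrophage markers 1, Cd68, rose (5.75% of all genes did; median log2FC -0.58 over the 8), and their summed CPM was 66.9 to 116 at baseline and 69.3 to 122 at Day 5. None of 3 neutrophil markers tested passed, and the 4 listed had a summed CPM of 5.22 to 16.9 at baseline and 8.47 to 15.9 at Day 5. None of 5 T cell markers (1.15 to 2.00 and 1.64 to 2.90 summed CPM) or 4 B cell markers (1.15 to 1.65 and 0.635 to 1.13) passed. The part of these cells in the Il6 and Gdf15 values was not tested.

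Lmnb1, which encodes lamin B1, measured 8.89, 10.2 and 8.10 CPM in Ajcl at baseline, 9.82 and 8.96 at Day 5, 7.79, 8.75 and 8.63 in ByJcl at baseline and 10.4, 7.64 and 9.38 at Day 5. Its libraries overlapped in each of the 4 comparisons between groups. The log2FC was 0.06 (95% interval -0.34 to 0.47, adjusted p = 0.946 by edgeR) in Ajcl and 0.15 (-0.21 to 0.51, adjusted p = 0.601 by edgeR) in ByJcl. A fall of Lmnb1 by more than 0.34 on the log2 scale thus lay outside the interval in both substrains. The genes Lmnb1 and Marchf3 overlap by 466 bases on opposite strands.

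The second question was whether the substrains differed, before ADR and at Day 5. None of the 9 genes passed at baseline (0.159% of all genes did), none at Day 5 (0.165%) and none in the interaction. In the interaction edgeR called 0% of the 17002 genes, with 1363 at an unadjusted p below 0.05, and DESeq2 called 22. Libraries did not overlap between substrains for 1 of the 9 genes at baseline (14.5% of all genes), Cdkn1c, and there only by 1131 against 1133 CPM, and for 3 of the 9 at Day 5 (32.3%), Cdkn2b and, through the group that carried them past the filter, Cdkn2a and Il6. Cdkn1c was 1.24-fold higher in ByJcl at baseline (log2FC 0.32, 95% interval -0.07 to 0.71, adjusted p = 0.627 by edgeR) and 1.29-fold at Day 5 (0.37, -0.07 to 0.81, adjusted p = 0.434 by edgeR). Gdf15 had a log2FC of 0.61 at baseline and 0.85 at Day 5 for ByJcl against Ajcl, with intervals of -0.31 to 1.53 and -0.16 to 1.87. Without ByJcl baseline replicate 3 the first was 0.036, and without ByJcl Day 5 replicate 2 the second was 0.40. The remaining genes above the detection limit, Cdkn1b, Cdkn2c, Cdkn2d and Lmnb1, had substrain log2FC between -0.20 and 0.22. All 10 proximal tubule markers had a log2FC below 0 in ByJcl against Ajcl at baseline and none passed (median -0.93, summed CPM 615 to 3556 against 1961 to 6330). At Day 5 none of the 10 was above 0 and none passed (median -0.97, summed CPM 554 to 2372 against 2372 to 3219). The 5 distal nephron markers were not above 0 at either time, and none passed (median -1.34 and -1.35). Of 8 macrophage markers 8 were above 0 at baseline and 6 at Day 5, and none passed (median 0.92 and 0.63). The part of these cells in the substrain values was not tested.

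Among the partners and targets of the CDK inhibitors, the calls were all in ByJcl at Day 5 and all lower, in a comparison that called 4.83% of all genes lower and 10.6% in either direction. Of 13 CDKs and cyclins 1 fell, Ccnd2, the gene of cyclin D2, from 209 ± 36.3 to 136 ± 8.14 CPM (SD, n = 3). Of 13 RB and E2F family genes 3 fell, namely Tfdp2 (log2FC -0.66), a partner of E2F, Rbl2 (-0.33), the pocket protein p130, and E2f1 (-1.42). Of 12 genes of p27 turnover and transcription 2 fell, the forkhead factor Foxo4 (log2FC -0.56) and the ubiquitin ligase subunit Fbxo4 (-0.77). Of 17 regulators of the INK4 locus 2 fell, the Polycomb genes Cbx7 (log2FC -0.45) and Ezh1 (-0.41). None of 20 genes of dividing cells, Mki67 and Top2a among them, passed in either substrain, with a median log2FC of 0.45 in ByJcl and -0.19 in Ajcl. Their summed CPM in ByJcl was 204, 125 and 124 at Day 5, 1 library above and the other two below the baseline range of 136 to 146.0. None of the genes in these 5 lists passed in Ajcl.

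The lists around the secreted and lamina genes held calls in both directions in ByJcl, where 5.75% of all genes were called higher and 4.83% lower. Of 11 nuclear lamina genes 3 rose and none fell: Lmna, the gene of lamins A and C, from 264 ± 15.1 to 440 ± 33.5 CPM (SD, n = 3), Emd (log2FC 0.54) and the lamin A protease Zmpste24 (0.33). Of 19 genes of IL-6 family signalling 8 rose and 1 fell, led by the cytokine Lif (log2FC 1.92), the oncostatin M receptor Osmr (1.05) and the transcription factor Cebpd (1.32), while the receptor Lifr fell (-0.84). Of 10 inducers of GDF15 and stress genes tested, out of 12 listed, 5 rose, Sesn2 (log2FC 1.84), Asns (1.12) and Ppp1r15a (0.71) first. Among 29 other secreted senescence factors tested, out of 32 listed, 9 rose, Serpine2 (log2FC 0.87) and Cxcl10 (4.19) among them. Serpine2 was also 1 of the mesangial markers. In the same list 1 gene, Vegfa, fell from 1713 ± 134 to 545 ± 72.2 CPM (SD, n = 3). Vegfa is made chiefly by podocytes in the glomerulus. Of 15 other senescence markers 3 rose, Cdkn1a, Bcl2l1 (log2FC 1.47) and Fuca1 (0.51), and 2 fell, Bcl2l2 (-0.50) and Trp53bp1 (-0.52). In Ajcl the calls in these 5 lists were Osmr (log2FC 0.88), Cxcl10 (3.99) and Cdkn1a.

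By Pearson correlation of log2 CPM over the 11 libraries, the genes most like Cdkn1c were Cd82 (r = 0.99) and Birc3 (r = 0.98), and those most like Gdf15 were Wnt9a (r = 0.99) and Sema7a (r = 0.98). No such genes are given for Il6, which was at 0 in 4 of the 11 libraries. These are descriptions over libraries that share the same 4 groups, and the genes were the highest of all tested genes.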

How the data were processed

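Glomerulus-enriched mouse RNA was measured by poly(A)-selected, strand-specific paired-end sequencing in 12 libraries, which the labels place in 1 batch. After read checks and trimming (FastQC, Trimmomatic), the authors used STAR with GRCm39 and featureCounts, and deposited whole-number counts per gene symbol, without normalization and with baseline and Day 5 in separate tables, so a difference in processing between the tables and the effect of ADR cannot be told apart. The annotation, the strand setting and the counting of mates are not given in the sources used here. Between 77.1% and 82.9% of counts from 1 to 49 are even, as when the mates of a pair are counted separately, and halved counts were one alternative.

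Counts were analysed in R 4.3.3 with edgeR 4.0.16 (filterByExpr with a minimum count of 10, TMM, quasi-likelihood test, 1 coefficient per group, 7 residual degrees of freedom) on 11 libraries, with Benjamini-Hochberg adjustment over 17002 genes and calls below 0.05. The study used DESeq2, here an alternative (1.42.0). CPM were scaled with TMM factors of the 12 libraries, and RPKM used GENCODE exonic lengths on GRCm39. Standard errors were derived from the fitted log2FC and F statistic. Counting intervals and floors cover counting error only, since no molecular identifiers were used. Promoter windows were from RefSeq, located by exact match to GRCm39. The fit was tested on simulated data.

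Groups and replicate numbers came from the sample titles. The members and gene lists were chosen with earlier results of these data known. Named genes were the 9 members, Cdkn1a, at most 3 called genes per list, direction and comparison by adjusted p, and the 2 genes most correlated with each called member. A gene that this rule names is not reported here. Alternatives were the 12 libraries, DESeq2, RLE factors, total counts, all genes with a count, the groups of the comparison alone, a replicate block, halved counts and leaving out each library.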

Additional observations from a re-analysis of the deposited data

Results flagged for a closer look

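Replicate 1 of Ajcl at Day 5, which entered no comparison, lay above all 3 Ajcl baseline libraries for 5 of the 9 genes, as it did for 36.5% of the 17002 genes tested. Cdkn1c measured 2291 CPM there, Gdf15 18.9 CPM and Il6 0.302 CPM (14 counts), against at most 1131, 4.31 and 0.0424 CPM in the Ajcl baseline libraries. Cdkn2b at 2.44 CPM and Cdkn2c at 10.1 CPM were the highest of the 12 libraries, a position that 22.7% of all genes tested shared in this library, where the next highest values were 2.19 and 7.77 CPM. Cdkn2a had 0 counts in it. The same library had a summed CPM of 9637 for the proximal tubule markers and 2004 for the distal nephron markers, both the highest of the 12, and 10610 for the podocyte markers. The part of tubular RNA in these 5 values was not tested.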

How the results depend on the processing

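Each comparison was repeated under 8 alternatives (7 for the interaction, which needs all groups) and with each of the 11 libraries left out, and Cdkn2a did not pass the filter with the 12 libraries. In Ajcl the number of the 9 genes called for ADR was 0 and became 1 with the 12 libraries (Cdkn1c), 2 by DESeq2 (Cdkn1c and Gdf15), 1 with all genes that had a count (Cdkn1c) and 1 with the Ajcl groups alone (Gdf15), and it ranged from 0 to 1 with 1 library left out (Cdkn1c without Ajcl Day 5 replicate 2, adjusted p = 0.0483 by edgeR). In ByJcl it ranged from 2 to 3 with 1 library left out. Il6 lost its call in ByJcl with all genes that had a count (adjusted p = 0.0685 by edgeR) and with the replicate block (0.0613). The numbers of genes called over the whole table moved by more than 1.5 times as follows. For ADR in Ajcl the 53 calls became 301 by DESeq2, 99 with all genes and 26 with the replicate block, and ranged from 12 to 176 with 1 library left out. For ADR in ByJcl the 1800 calls became 1197 with the 12 libraries and ranged from 684 to 2051. Between substrains at baseline the 27 calls became 101 by DESeq2 and 15 with those groups alone, and ranged from 12 to 30. At Day 5 the 28 calls became 72 with the 12 libraries, 535 by DESeq2, 56 with all genes and 6 with those groups alone, and ranged from 9 to 232. For the interaction 0 became 22 by DESeq2 and ranged from 0 to 5. Log2 fold changes that changed sign were all uncalled. With the 12 libraries they were 0.14 for Cdkn2c and -0.004 for Lmnb1 under ADR in Ajcl, -0.0058 for Cdkn2d and 0.052 for Lmnb1 between substrains at Day 5, and -0.16 for Cdkn2c in the interaction. With total counts Cdkn2c under ADR in ByJcl was 0.010, and Lmnb1 between substrains at Day 5 was 0.0025 by DESeq2 and 0.0021 with RLE factors. In the interaction Cdkn2a was 0.38 and Cdkn2c -0.0094 with the replicate block, and Cdkn2a was 0.093 with halved counts. With 1 library left out, the ranges that crossed 0 were -0.11 to 0.25 for Cdkn1b, -0.17 to 0.20 for Cdkn2d and -0.016 to 0.18 for Lmnb1 under ADR in Ajcl, and -0.25 to 0.13 for Cdkn2c under ADR in ByJcl. Between substrains at baseline they were -0.027 to 0.16 for Cdkn1b, -0.11 to 0.056 for Cdkn2b, -0.19 to 0.017 for Lmnb1 and -2.66 to 2.59 for Il6. At Day 5 they were -0.36 to 0.018 for Cdkn2c, -0.046 to 0.13 for Cdkn2d and -0.13 to 0.11 for Lmnb1. In the interaction they were -0.10 to 0.29 for Cdkn1c, -2.73 to 1.61 for Cdkn2a, -0.16 to 0.21 for Cdkn2c, -0.35 to 0.023 for Cdkn2d, -0.20 to 0.82 for Gdf15, -1.10 to 4.15 for Il6 and -0.032 to 0.21 for Lmnb1. The shift of Cdkn1c relative to the podocyte markers ranged from 0.86 to 1.88 in Ajcl and from 2.09 to 2.35 in ByJcl with 1 library left out, and the substrain difference in it from -0.10 to 0.16 at baseline and from 0.37 to 1.39 at Day 5. The cause of these changes was not tested. The labels do not say that a replicate number marks shared animals or days, and the correlation of same-numbered libraries' deviations ranged from -0.238 to 0.374. Cdkn2a and Il6 had at most 18 counts in a library, so depth limits the precision of their values.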
